A study of Mus musculus with 6 samples.

Results

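The genes described here are 10 components of the Notch pathway, comprising the receptors Notch1, Notch2 and Notch3, the ligands Dll1, Dll3 and Jag1, the DNA-binding effector Rbpj, and the transcriptional targets Hes1, Hes5 and Hey1. They were chosen by gene symbol, and all 10 were found, in 12 of the 32025 transcript rows of an exon array data set that names 20263 genes. The data come from neural stem cells of CD-1 albino mouse embryos at E14.5, grown as neurospheres (floating colonies of dividing progenitors) under proliferation conditions. All cells were nucleofected, that is, transfected by an electrical pulse. One group received a mimic of miR-128, a microRNA that these cells do not normally express, and the other received a control RNA named miR-Control. RNA was taken 72 h later from 3 samples of each group, termed biological triplicates in the labels. The labels do not say whether they came from separate embryos or cultures, so the p-values measure only the spread between these samples. The comparison asks which genes respond to the microRNA.

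Notch signalling passes between touching cells. A ligand of the Delta or Jagged family on one cell binds a Notch receptor on its neighbour, the receptor is cleaved, and its intracellular domain enters the nucleus, where it joins RBPJ and turns it from a repressor into an activator. The best known targets are the Hes and Hey genes, which encode basic helix-loop-helix repressors. In the embryonic brain these repressors hold back proneural genes such as Neurog2 and so keep radial glia dividing, while the cells that escape repression express Dll1 and begin to differentiate.

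The sequences below show the introduced microRNA and the upstream regions of 3 members, Hes5, Rbpj and Dll3. The mature strand of miR-128 is encoded by 2 mouse genes, at chr1:128202404-128202424 on the plus strand and chr9:112118644-112118664 on the minus strand (RefSeq, GRCm38.p6). Both give the same 21 bases, and capitals mark the seed, bases 2 to 8 from the 5′ end, which pairs with target transcripts. The sequence of the mimic itself was not given in the sources used here.
mmu-miR-128-3p: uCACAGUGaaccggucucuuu

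RBPJ binds the core TGGGAA, which was searched on both strands in the RefSeq promoter windows of 300 bases (250 before to 50 after a start site). Of 10 members, 8 had a promoter entry, with 10 windows among them. Hes1 and Hey1 had no entry, so they could not be searched. The core was held by 3 windows, belonging to 2 genes, Hes5 and Rbpj. The 2 Rbpj windows overlap and share 1 match, so they are not separate. Among all 32851 windows 25.6% held the core. The longer form GTGGGAA, which contains the core, occurred in 6.38% of all windows and in 2 places in that of Hes5. A match describes letters only and is not a binding site. Shown are the 250 bases upstream of the start sites of Hes5 (chr4:154960673-154960922, plus strand), Rbpj (chr5:53590096-53590345, plus strand, 1 of 2 overlapping entries) and Dll3 (chr7:28301786-28302035, minus strand), 5′ to 3′ in the direction of transcription, with the core in either orientation in capitals. Hes5 carries the longer form in opposite orientations, and the window of Dll3 has none of these letters.
Hes5: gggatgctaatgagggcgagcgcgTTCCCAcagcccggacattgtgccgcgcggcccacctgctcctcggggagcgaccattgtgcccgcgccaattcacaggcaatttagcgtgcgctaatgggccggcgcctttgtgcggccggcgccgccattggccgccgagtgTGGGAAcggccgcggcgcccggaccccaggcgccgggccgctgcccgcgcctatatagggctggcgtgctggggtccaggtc
Rbpj: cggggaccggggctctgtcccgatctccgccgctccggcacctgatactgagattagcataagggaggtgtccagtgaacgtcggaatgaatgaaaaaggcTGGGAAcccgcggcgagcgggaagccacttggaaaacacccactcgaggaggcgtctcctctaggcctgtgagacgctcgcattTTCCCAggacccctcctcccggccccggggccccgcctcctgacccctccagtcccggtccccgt
Dll3: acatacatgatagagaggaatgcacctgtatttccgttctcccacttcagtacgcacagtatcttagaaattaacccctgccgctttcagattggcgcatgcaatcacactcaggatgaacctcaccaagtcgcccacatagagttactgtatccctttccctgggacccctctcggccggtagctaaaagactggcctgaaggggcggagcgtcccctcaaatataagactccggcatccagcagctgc

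Values are deposited log2 levels, so a difference of 1 is a doubling, and the level of one gene cannot be set against that of another because their probes differ. Array medians lay between 7.40 and 7.54. The interquartile range of the rows ran from 2.87 on miR-Control replicate 3 to 3.22 on miR-Control replicate 2, so the arrays did not share 1 distribution. One control array, replicate 3, lay away from the other 5, at 42.5 on the first principal component against -18.7 to -0.226, and each member's difference and each pathway list's median is therefore also given without it. The radial glia genes Nes, Sox2, Fabp7, Slc1a3 and Vim had control means of 11.06, 11.94, 12.61, 12.22 and 13.57, well above the array medians, while Prom1 (5.85) and Hopx (7.25) lay below them, a rough check since probes differ in brightness. Ptprc of microglia (4.77), and Pecam1 (6.47) and Cdh5 (6.69) of endothelium, cell types in which Notch is also active, also lay below. In a population of cells, fewer cells of a type and less RNA per cell cannot be told apart.

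With miR-128, 9 of the 10 members had a higher mean and 1, Hey1, a lower mean, and none passed the test. The 2 widest differences lay on opposite sides within the target genes, Hes5 at 0.33 and Hey1 at -0.39 on the log2 scale. The median log2 fold change of the 10 genes was 0.15, against 0.02 over all rows, of which 56.8% were positive. In limma with Benjamini-Hochberg adjustment over all rows the lowest adjusted p of a member was 0.701, for Dll3, and no member had an unadjusted p under 0.05. Of all rows 0% passed at an adjusted p of 0.05 and 7.15% had an unadjusted p under 0.05. Without miR-Control replicate 3 the members' median was 0.12 and 8 of the 10 were higher, with 0.05 for all rows.

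Notch1, a main receptor of radial glia, had levels of 10.94, 10.62 and 10.73 in replicates 1, 2 and 3 of miR-Control, against 11.11, 10.79 and 11.23 in the miR-128 replicates, in the same order as throughout. Replicates 1 and 3 of miR-128 lay above every control, and replicate 2 fell within the control range. The means were 10.76 ± 0.16 and 11.04 ± 0.23 (SD, n = 3), and the log2 fold change was 0.28 (SE 0.14, 95% interval -0.05 to 0.60, limma adjusted p = 0.768). The difference was 0.26 without miR-Control replicate 3.

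Notch2, a receptor of progenitors and glia, had levels of 9.78, 9.72 and 9.57 on the control arrays and 9.87, 9.65 and 10.02 on the miR-128 arrays. Here too replicate 2 lay inside the control range while the other miR-128 arrays lay above it. The log2 fold change of Notch2 was 0.16 (SE 0.13, 95% interval -0.13 to 0.44, limma adjusted p = 0.913), and 0.10 without miR-Control replicate 3. Notch3, best known from vascular mural cells and also present in neural progenitors, had 9.50, 9.27 and 9.47 on the control arrays and 9.46, 9.31 and 9.77 on the miR-128 arrays. Replicate 3 alone of the miR-128 arrays exceeded the controls for Notch3. Its log2 fold change was 0.10 (SE 0.14, 95% interval -0.22 to 0.42, limma adjusted p = 0.965), it turned to -0.03 without that array, and it was 0.13 without miR-Control replicate 3.

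Among the ligands, Dll3 was the only member whose groups did not overlap. Dll3 encodes a divergent Delta protein that acts within the cell expressing it and opposes rather than activates Notch. Its levels were 9.24, 9.21 and 9.14 on the control arrays and 9.34, 9.43 and 9.51 on the miR-128 arrays, so every miR-128 array lay above every control. The means were 9.20 ± 0.05 and 9.43 ± 0.09 (SD, n = 3), and the log2 fold change was 0.23 (SE 0.10, 95% interval -0.00096 to 0.46, limma adjusted p = 0.701), equal to 1.17-fold. Groups lay apart in this direction in 6.98% of all rows, in the lower direction in 4.87%, and in either in 11.9%. The fold change of Dll3 was 0.20 without miR-Control replicate 3.

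Dll1, an activating ligand of committing progenitors, had levels of 9.29, 9.10 and 9.15 on the control arrays and 9.39, 9.15 and 9.45 on the miR-128 arrays. Its groups overlapped through miR-128 replicate 2. The log2 fold change of Dll1 was 0.15 (SE 0.12, 95% interval -0.12 to 0.42, limma adjusted p = 0.905), and 0.14 without miR-Control replicate 3. Jag1, a Jagged ligand, had levels of 10.15, 10.20 and 9.97 on the control arrays and 10.19, 10.10 and 10.26 on the miR-128 arrays, a near complete overlap. Its log2 fold change was 0.08 (SE 0.11, 95% interval -0.17 to 0.33, limma adjusted p = 0.965), and it was 0.00968 without miR-Control replicate 3.

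**Figure D1:**
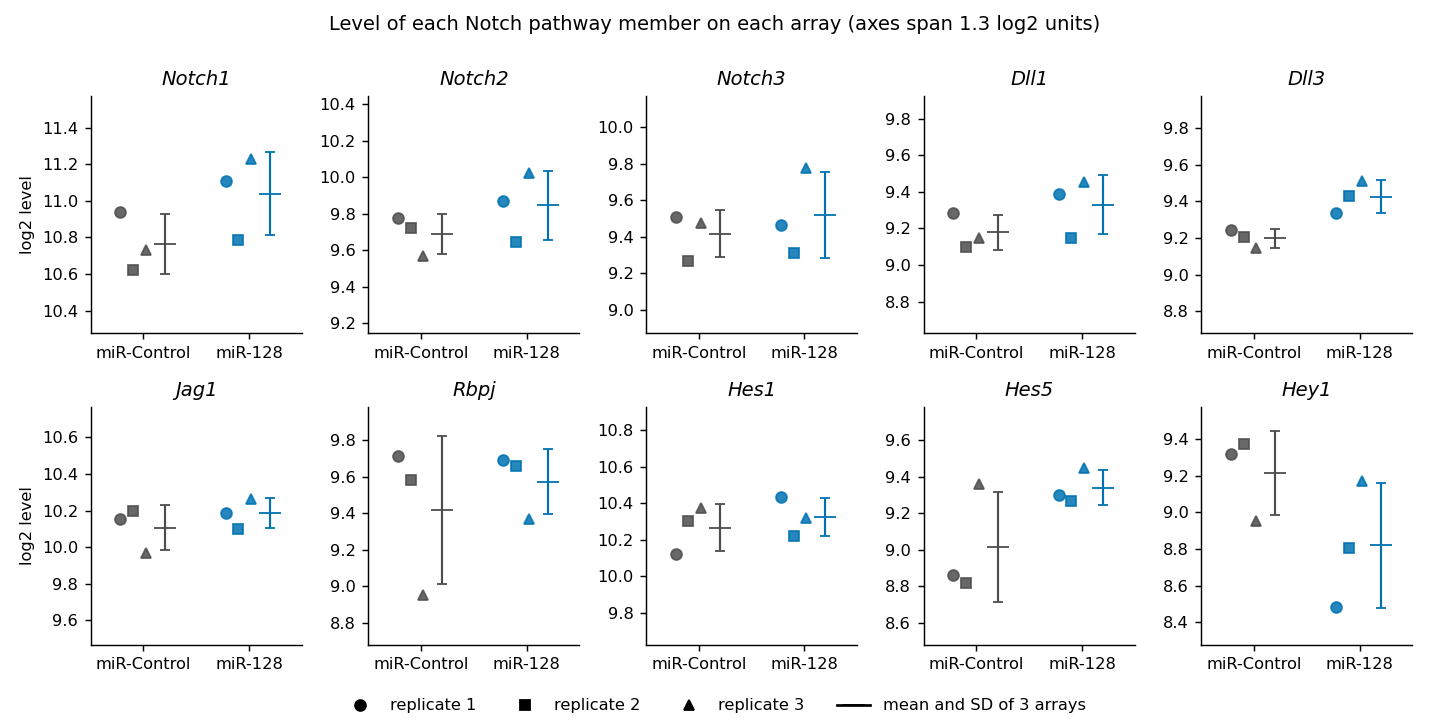
Log2 level (vertical axes, each spanning 1.3 units) of the 10 members on each array, with controls in grey and miR-128 in blue, markers by replicate number, and a bar for the mean and SD of 3 arrays. The groups lie apart for Dll3 alone, and miR-Control replicate 3 stands away from the other controls for Rbpj, Hes5 and Hey1.

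Rbpj, the DNA-binding protein through which every receptor acts, had 3 transcript rows, and their values moved together across the arrays. The row of highest mean had levels of 9.71, 9.58 and 8.95 on the control arrays and 9.69, 9.66 and 9.37 on the miR-128 arrays. The low array was miR-Control replicate 3, and the other controls lay among the miR-128 arrays or just above them. In the other rows the levels were 9.36, 9.11 and 8.56 against 9.31, 9.31 and 8.999, and 7.12, 7.22 and 6.64 against 7.18, 7.23 and 6.99. The Rbpj log2 fold changes were 0.16 (SE 0.20, 95% interval -0.29 to 0.60), 0.20 (SE 0.20) and 0.14 (SE 0.16), with limma adjusted p of 0.957, 0.937 and 0.948. Without miR-Control replicate 3 all turned negative, to -0.07, -0.02 and -0.03. The rows may share probes and are not separate evidence.

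Of the 3 target genes 2 had a higher mean and 1 a lower mean with miR-128. Hes5, a Notch target repressor of radial glia, had levels of 8.86, 8.82 and 9.36 on the control arrays and 9.30, 9.27 and 9.45 on the miR-128 arrays. All miR-128 arrays lay above controls 1 and 2, but control 3 lay among them. The means of Hes5 were 9.01 ± 0.30 and 9.34 ± 0.10 (SD, n = 3), and the log2 fold change was 0.33 (SE 0.15, 95% interval -0.03 to 0.68, limma adjusted p = 0.730), or 1.25-fold. A difference of at least this size in either direction was found in 7.11% of all rows. Without miR-Control replicate 3 the Hes5 difference was 0.50 (SE 0.10, 95% interval 0.27 to 0.73) with an adjusted p of 0.266, so it still did not pass. In that comparison of 3 arrays with 2, groups lay apart in this direction in 21.5% of all rows, 12.4% of rows had an unadjusted p under 0.05 and 0% passed the adjusted test.

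Hey1, a relative of the Hes repressors that is also induced by BMP signals, was the member with a lower mean. Its levels were 9.32, 9.37 and 8.95 on the control arrays and 8.48, 8.81 and 9.17 on the miR-128 arrays. Replicates 1 and 2 of miR-128 lay below every control, and replicate 3 lay within the control range. The means of Hey1 were 9.21 ± 0.23 and 8.82 ± 0.34 (SD, n = 3), and the log2 fold change was -0.39 (SE 0.19, 95% interval -0.82 to 0.03, limma adjusted p = 0.725), or 1.31-fold lower. Differences of this size or more in either direction occurred in 4.11% of all rows. Without miR-Control replicate 3 it was -0.53 (95% interval -0.98 to -0.07, adjusted p = 0.370), with groups apart, as in 12.1% of all rows in that direction. Without miR-128 replicate 1, the lowest array, it was -0.23.

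Hes1, the widely expressed repressor of the same family as Hes5, had levels of 10.12, 10.30 and 10.37 on the control arrays and 10.43, 10.22 and 10.32 on the miR-128 arrays. The groups interleaved. Its log2 fold change was 0.06 (SE 0.11, 95% interval -0.20 to 0.32, limma adjusted p = 0.983), and it was 0.11 without miR-Control replicate 3 and -0.01 without miR-Control replicate 1. Its interval was narrower than those of Hes5 and Hey1, which reached 0.68 and -0.82.

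**Figure D2:**
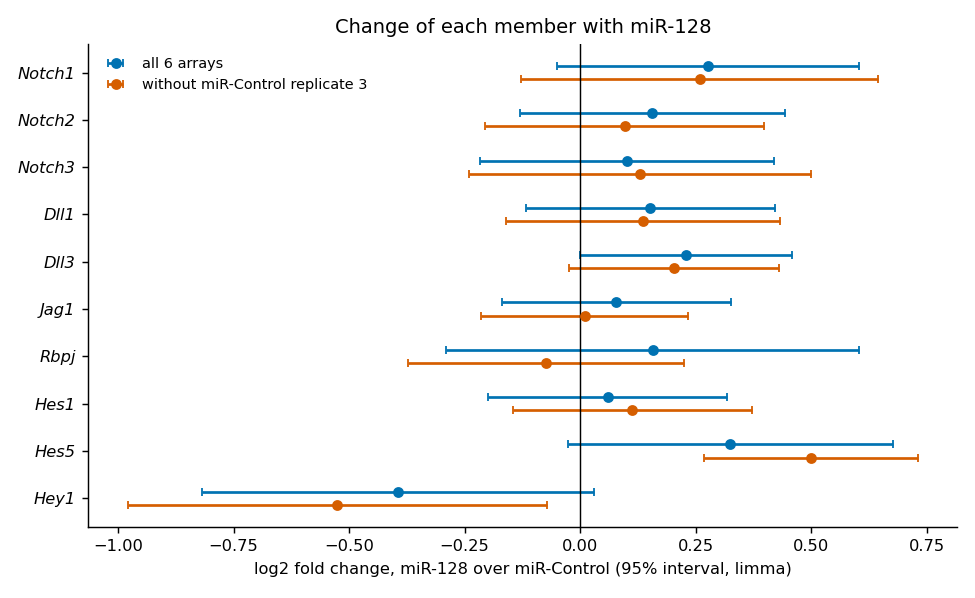
Log2 fold change of each member, miR-128 over miR-Control, with limma's 95% interval (horizontal axis), for all 6 arrays in blue and without miR-Control replicate 3 in orange. With all arrays every interval includes 0, and without that array those of Hes5 and Hey1 do not, while Rbpj changes sign.

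The members also varied among the arrays of a group. Among the miR-128 arrays, replicate 3 was the highest in 8 of the 10 genes and replicate 2 the lowest in 7. Over all rows replicate 3 was the highest of its group in 43.6% and replicate 2 the lowest in 31.8%. The members' median deviation from the control mean was 0.17, -0.02 and 0.30 on miR-128 replicates 1 to 3, where all rows gave -0.00191, 0.02 and 0.04. Replicate 3 lay above all controls in 7 members, replicate 1 in 5 and replicate 2 in 1, Dll3. The receptors, Dll1, Jag1 and Hes5 shared this order, with replicate 3 above replicate 1 and replicate 1 above replicate 2. In contrast, Hey1 was lowest on replicate 1 and Rbpj was lowest on replicate 3.

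**Figure D3:**
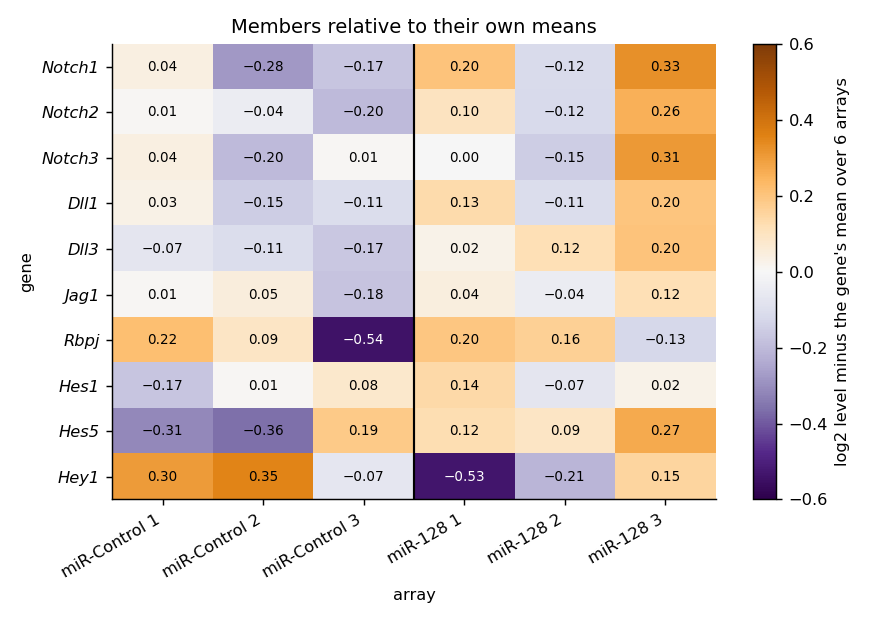
Log2 level minus the gene's own mean over the 6 arrays (colour and printed value), with genes in rows and arrays in columns, and a line between controls and miR-128. Notch1, Notch2, Notch3, Dll1, Dll3, Jag1 and Hes5 are highest on miR-128 replicate 3, and the Hes5 and Hey1 rows show opposite signs on controls 1 and 2.

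The patterns most like those of the targets were sought among named genes that varied at least as much over the 6 arrays, by the root mean square difference of centred log2 values. For Hes1 these were Btg2 (0.0233) and Bmp2 (0.0310). For Hes5 they were Speer9-ps1 (0.0509) and Lcn11 (0.0656), and for Hey1 they were Washc5 (0.0690) and Pcbp1 (0.0863). Both genes named for Hes5 lay below the array medians, Speer9-ps1 at 4.17 to 4.74 and Lcn11 at 5.58 to 6.19, as did Bmp2. No detection call was used, so their signal may be background. The candidates numbered 15261 for Hes1, 2357 for Hes5 and 988 for Hey1, and none of the genes named is a Notch component. With so many candidates and only 6 arrays, close matches are likely for any gene, so nothing is concluded from them.

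The rest of the pathway was read from 80 further genes in 7 lists, of which 75 had a named row. None of them passed the test, 51 were higher and 24 lower with miR-128, and their median log2 fold change was 0.05. The lowest adjusted p among them was 0.391. An unadjusted p under 0.05 was found for 3, where 7.15% of all rows had one, and groups lay apart in 4 (5.33%), below the 11.9% of all rows. These were Maml2 and the contactin Cntn1, a neural adhesion protein reported as a Notch ligand, on the higher side, and the ubiquitin ligase Itch and the helix-loop-helix inhibitor Id3 on the lower. Cntn1, at 0.45 (SE 0.13, limma adjusted p = 0.470), Itch, at -0.17 (SE 0.10), and Id3, at -0.61 (SE 0.14, limma adjusted p = 0.391), were named after their values were seen. They were at 0.43, -0.18 and -0.51 without miR-Control replicate 3. Id3 is chiefly known as a BMP target. The other Id genes of its list did not share its size of change. Id1 was at -0.12, Id2 at 0.11 and Id4 at 0.04, each with overlapping groups. BMP signalling was not tested.

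The other receptors and ligands were higher in 6 of 8 genes, with a median log2 fold change of 0.11 and no call, and in 8 of 8 with a median of 0.16 without miR-Control replicate 3. Dner, a Delta-like transmembrane protein of neural cells, was at 0.36 (SE 0.17, limma adjusted p = 0.733), with control levels of 11.30, 11.10 and 10.64 and miR-128 levels of 11.41, 11.20 and 11.51, and at 0.17 without miR-Control replicate 3. The endothelial receptor Notch4 was at 0.13 and the endothelial ligand Dll4 at 0.09, Jag2 was at -0.05 and the inhibitory ligand Dlk1 at 0.13. The Dlk1 row of highest mean, used here, is of a noncoding transcript, and the mean over that gene's distinct rows was 0.095. The control mean of Dll4, 6.87, lay below the array medians. Among 15 enzymes that modify or ubiquitinate receptors and ligands 13 were higher, with a median of 0.05, and 12 with 0.08 without that array. The Fringe glycosyltransferases, which tune which ligand a receptor answers, were at 0.04 for Lfng, 0.03 for Mfng and 0.11 for Rfng, and the fucosyltransferase Pofut1 was at 0.00970. Mib1, the ligase that ligands need to signal, was at 0.26 (SE 0.13, limma adjusted p = 0.746).

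Receptor cleavage genes divided evenly, 3 higher and 3 lower, with a median of -0.05, and 2 of the 6 were higher, with a median of -0.11, without miR-Control replicate 3. The sheddases that make the first cut were at 0.02 for Adam10 and -0.12 for Adam17. The 4 measured gamma-secretase subunits split, with Psen2 at 0.25 (SE 0.13) and Ncstn at 0.18 (SE 0.11) on the higher side, and Aph1a at -0.47 (SE 0.55) and Aph1b at -0.14 (SE 0.11), both named after their values were seen, on the lower. The Aph1a levels spread widely within both groups, which overlapped, at 7.82, 8.85 and 7.44 in the controls against 8.07, 8.41 and 6.22. Aph1a was at -0.77 and Aph1b at -0.20 without miR-Control replicate 3. Of the coactivators and corepressors 16 of 18 were higher, with a median of 0.14, and 14 with 0.12 without miR-Control replicate 3. The Mastermind coactivators, which bind the complex of receptor domain and RBPJ, were at 0.21 for Maml1, 0.32 for Maml2 (SE 0.12, limma adjusted p = 0.650) and 0.09 for Maml3. Maml2 had levels of 10.08, 9.95 and 10.07 on the control arrays and 10.53, 10.15 and 10.36 on the miR-128 arrays, so its groups did not overlap, and it was at 0.33 without miR-Control replicate 3.

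Inhibitors and turnover factors were higher in 5 of 7 genes, with a median of 0.07, and in 4 with 0.01 without miR-Control replicate 3. The endocytic inhibitors Numb and Numbl were at 0.07 and 0.14, the ligase subunit Fbxw7, which marks the receptor domain for destruction, at -0.10, and the feedback inhibitor and direct target Nrarp at 0.03 (SE 0.15). Further Hes, Hey and helix-loop-helix genes were lower in 8 of 12, with a median of -0.03, and in 6 of 12, with a median of -0.00800, without miR-Control replicate 3. Hes6, which antagonises Hes1 and rises as progenitors commit, was at -0.18 (SE 0.17, limma adjusted p = 0.937), and at -0.36 without miR-Control replicate 3. Hes3 was at -0.03, Hes7 at -0.02, Hey2 at 0.18 and Heyl at -0.04. Their control means were 7.11, 8.14, 6.62 and 6.78, of which that of Hes7 alone lay above the array medians.

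The proneural factors that Hes proteins repress showed 4 genes higher and 5 lower, with a median of -0.000657. Without miR-Control replicate 3, 6 of the 9 were higher, with a median of 0.08. Neurog1 was at 0.15, Neurog2 at 0.11, Neurod1 at -0.01 and Neurod4 at -0.11. The mean level of this list was 6.79 to 7.05 on the control arrays, below the array medians. With no detection call, some of these rows may be background.

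**Figure D4:**
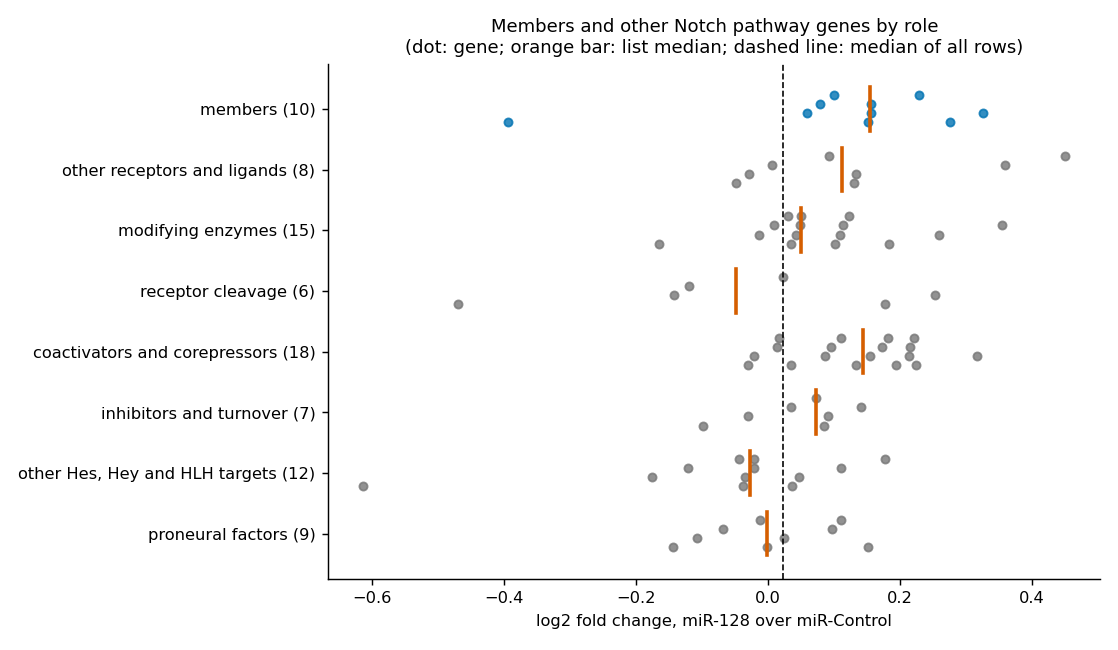
Log2 fold change (horizontal axis) of the 10 members in blue and of the other 75 pathway genes in grey by role, with the number of genes in brackets, list medians in orange and the median of all rows dashed. List medians run from -0.05 for receptor cleavage to 0.15 for the members.

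Markers of cell types in which the pathway is active were read beside these values. The mean level of 10 radial glia and stem cell genes was 10.20 to 10.32 on the control arrays and 10.15 to 10.24 on the miR-128 arrays, with 5 higher and 5 lower, and again 5 and 5 without miR-Control replicate 3. Of the 7 genes of the oligodendrocyte lineage 6 were higher, and 7 without that array, and their mean level of 8.72 to 8.82 in the controls lay below the 8.92 to 9.05 of the miR-128 arrays. The ranges overlapped for neurons (7.67 to 7.74 and 7.64 to 7.72), astrocytes (8.50 to 8.64 and 8.56 to 8.65), vascular and mesenchymal genes (6.71 to 6.89 and 6.74 to 6.82) and microglia (6.14 to 6.31 and 6.21 to 6.31). Higher genes numbered 4 of 8 for neurons, 4 of 6 for astrocytes, 5 of 8 for vascular and mesenchymal genes and 6 of 6 for microglia. Without miR-Control replicate 3 these counts were 5, 4, 7 and 6. Of all rows 56.8% were positive with all arrays. The mean level of the microglia genes lay below the array medians, so their signal may be background. None of the 45 markers passed. The part of the oligodendrocyte genes in the values of Dll3, Hes5 and Hey1 was not tested.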

How the data were processed

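The deposited table holds log2 expression values of 6 exon arrays, 1 row per RefSeq transcript. Per the submitters' processing notes, the authors used affy and RMA (versions not stated). RMA corrects background, brings the probe values of the arrays to one distribution and condenses probes, usually compressing fold changes. The deposited rows still differed in spread between the arrays, as given in the Results. No detection call was used. How the probes were grouped, and on which build, is not stated in the labels.

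Rows were named by unversioned accession through the RefSeq gene table of GRCm38.p6: 25343 of 32025 had a symbol. A gene is represented by its row of highest mean. Promoter and microRNA sequences are RefSeq's (GRCm38.p6).

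The test was limma 3.58.1 (R 4.3.3), lmFit and eBayes on all rows of all 6 arrays, unpaired and two-sided, with no filter, and Benjamini-Hochberg adjustment at 0.05. The procedure was also run on simulated data, but with changes larger than those of any member. That run cannot show how well changes of the members' size are found. Array number, 3 per group, limits precision: the median SE of a log2 fold change was 0.13. Members and lists were chosen with earlier results of these data known. Named genes are all members, pathway genes listed by symbol (some of which are not reported here), and the 2 genes most like each target. Alternatives left out each array, or used a replicate block, quantile normalization, median centring, a level filter, an intensity trend, array weights or the mean of a gene's rows.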

Additional observations from a re-analysis of the deposited data

How the results depend on the processing

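No member and no other pathway gene passed in any of 12 refits, which left out each array in turn, or used a replicate block, quantile normalization, arrays centred on their medians, rows above the median level, an intensity trend or array weights, and with all arrays no further row of these genes did. Calls over all rows, 0 in the reported test, were 4 among rows above the median level and 24 under array weights. The lowest adjusted p of a member was 0.151, for Hes5 under array weights, which weighted miR-Control replicate 3 at 0.279. Leaving out 1 array gave a members' median of 0.08 to 0.22 and 0 members called each time. The same replicate numbers occur in both groups. Deviations of same-numbered arrays correlated at -0.00279, 0.173 and 0.0515 for replicates 1 to 3, and not every array correlated best with its own number. With 3 arrays per group, these correlations cannot decide whether the numbers pair the arrays. The replicate block cannot alter a fold change in this balanced design. It moved the SEs both ways, such as from 0.196 to 0.126 for Rbpj and from 0.186 to 0.196 for Hey1. It gave 0 calls and a lowest limma adjusted p of 0.585 among members, for Hes5.

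Leave-one-out ranges on one side of 0 were 0.181 to 0.403 for Notch1, 0.0679 to 0.256 for Notch2, 0.0900 to 0.242 for Dll1, 0.185 to 0.274 for Dll3, 0.00968 to 0.123 for Jag1, 0.226 to 0.499 for Hes5 and -0.570 to -0.226 for Hey1. Pathway values that kept their sign but moved by over 1.5 times were 0.0422 to 0.242 for Notch4, 0.0606 to 0.144 for Dll4, 0.0139 to 0.206 for Dlk1, 0.173 to 0.501 for Dner, 0.145 to 0.333 for Mib1, -0.225 to -0.0242 for Adam17, 0.160 to 0.333 for Psen2, 0.101 to 0.237 for Ncstn, 0.110 to 0.344 for Maml1 and 0.0384 to 0.0943 for Numb. Others were 0.0553 to 0.231 for Numbl, -0.361 to -0.0705 for Hes6, 0.0855 to 0.313 for Hey2, 0.0861 to 0.247 for Neurog1, 0.00187 to 0.259 for Neurog2, -0.263 to -0.0128 for Neurod4 and -0.197 to -0.0918 for Aph1b. Leave-one-out ranges that crossed 0 were, among members, -0.0279 to 0.203 for Notch3, -0.0747 to 0.304 for Rbpj and -0.0126 to 0.113 for Hes1. Elsewhere they were -0.0976 to 0.00389 for Jag2, -0.0512 to 0.164 for Lfng, -0.0277 to 0.0934 for Mfng, -0.00194 to 0.214 for Rfng, -0.104 to 0.0894 for Pofut1 and -0.0260 to 0.114 for Adam10. They were -0.159 to 0.00936 for Fbxw7, -0.122 to 0.145 for Nrarp, -0.134 to 0.0273 for Hes3, -0.115 to 0.130 for Hes7, -0.213 to 0.190 for Heyl, -0.206 to 0.215 for Neurod1 and -0.891 to 0.204 for Aph1a. Signs turned without miR-128 replicate 3 for Notch3, Lfng, Rfng, Pofut1, Fbxw7, Nrarp and Aph1a, without miR-Control replicate 3 for Rbpj, Jag2, Adam10, Hes3, Hes7 and Heyl, without miR-Control replicate 1 for Hes1, Mfng, Adam10 and Hes3, without miR-Control replicate 2 for Lfng, Pofut1 and Neurod1, without miR-128 replicate 1 for Adam10, Hes3 and Hes7, and without miR-128 replicate 2 for Adam10. Quantile normalization turned Mfng to -0.0101 and Neurod1 to 8.11e-05. Median centring turned Pofut1 to -0.0183 and Adam10 to -0.00578. Array weights turned Rfng to -0.0192, Pofut1 to -0.0794, Hes7 to 0.0590, Heyl to 0.0750 and Neurod4 to 0.0513. The cause was not tested.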
